A study of Homo sapiens with 4 samples.

Results

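Aminoacyl-tRNA synthetases are the enzymes that join each amino acid to its transfer RNA, and their transcripts were followed through a treatment of 2 cell lines labelled as human liver cancer, one of which lacked hepatocyte markers. Members were the coding genes whose symbol is a letter followed by ARS, alone or with the ending 1, 2, A, B or L2, together with EPRS. The rule found 38 synthetase genes among 19739 coding genes. Of these, 21 were taken as cytosolic and 17, whose names end in 2, as mitochondrial, with TARSL2 kept on the cytosolic side. All 38 reached 1 FPKM, a level scaled to transcript length and to library size (fragments per kilobase of transcript and 1000000 fragments), in at least 1 library of each pair compared.

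The groups were cells labelled HepG2 given RSL3@O2-ICG NBS plus low-frequency ultrasound for 24 h, untreated cells labelled HepG2, Huh7 cells given the same treatment, and untreated Huh7 cells. HepG2 and Huh7 are established lines from human liver tumours, and RSL3 is a small molecule that inhibits the lipid peroxide-reducing enzyme GPX4 and is used to induce ferroptosis. Each group was 1 library, so the values below carry no replicate error, nothing was tested within a line, and the lines were not tested against each other. No group analysed here had RSL3, the carrier or ultrasound alone, so their parts in any difference cannot be told apart.

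Cells make proteins in the cytosol and, for the few genes of mitochondrial DNA, inside mitochondria, and most amino acids have a separate synthetase gene for each place. GARS and KARS are exceptions, since each supplies both compartments, and mitochondria make their glutamine-bearing transfer RNA by modifying a glutamate-bearing one. Several cytosolic synthetases sit together in a multi-synthetase complex held by scaffold proteins. When amino acids run short or the endoplasmic reticulum is stressed, the transcription factor ATF4 is known to raise transcription of many cytosolic synthetase genes, through composite elements bound by ATF4 with a C/EBP partner.

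The 4 libraries held an inferred 22900000 to 26400000 fragments, and 11156 to 11715 coding genes reached 1 FPKM. A synthetase rested on 114 to 21300 inferred fragments in a library, with a median of 1800. All 10 hepatocyte markers examined were below 1 FPKM in both libraries labelled HepG2, where they summed to 0.462 FPKM treated and 0.599 FPKM untreated. In Huh7 none was below 1 FPKM, and they summed to 1259 FPKM treated and 1645 FPKM untreated. The albumin gene ALB read 0 in treated and untreated cells labelled HepG2, against 711 FPKM in treated and 883 FPKM in untreated Huh7. HepG2 is known to make albumin, so these cells are named by their label only. CD68, a macrophage marker that other cells also carry, stood at 20.7 FPKM in treated and 1.38 FPKM in untreated cells labelled HepG2. It was also higher after treatment in Huh7, at 2.83 FPKM treated and 0.521 FPKM untreated. The general white blood cell marker PTPRC was listed at 0 in all 4 libraries. Fibroblast markers summed to 4.26 FPKM in treated and 7.58 FPKM in untreated cells labelled HepG2. Of these, COL1A1 went the other way, at 2.32 FPKM treated and 0.423 FPKM untreated. The part of these differences in the results was not tested.

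The sequences below show where the core of the ATF4 and C/EBP composite element, TGATGNAA read on both strands, occurred near synthetase starts. RefSeq windows (GRCh38.p14) running from 250 bases before to 50 bases after a gene start were found for 30 of the 38 genes, in 39 windows. Those without an entry included AARS2, DARS, LARS, TARSL2, VARS, VARS2 and YARS. The 8-base motif was present in 3.62% of 35116 windows of all genes, counted over 27305 genes of which 4.46% had it. Each line gives 30 bases along the gene's own strand with the motif, or its reverse complement, in capitals.
AARS (chr16:70289675-70289704, minus strand): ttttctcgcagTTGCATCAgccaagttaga
CARS (chr11:3057407-3057436, minus strand): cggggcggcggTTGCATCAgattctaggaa
GARS (chr7:30594834-30594863, plus strand): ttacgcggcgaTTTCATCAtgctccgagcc
IARS (chr9:92293692-92293721, minus strand): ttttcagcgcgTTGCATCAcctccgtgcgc
MARS (chr12:57488053-57488082, plus strand): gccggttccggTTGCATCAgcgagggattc
NARS (chr18:57621804-57621833, minus strand): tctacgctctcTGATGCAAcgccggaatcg
TARS (chr5:33440956-33440985, plus strand): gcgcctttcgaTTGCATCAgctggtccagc
YARS2 (chr12:32756076-32756105, minus strand): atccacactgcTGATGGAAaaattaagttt

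The motif was found at 7 of 16 cytosolic genes with a window and at 1 of 14 mitochondrial genes, YARS2. All 7 cytosolic genes belonged to the 13 that are widely reported as ATF4 targets, of which 10 had a window. The other 6 cytosolic genes with a window had none. The stricter form TGATGCAA was present at 6 of the 16 cytosolic genes with a window, against 1.08% of all genes with a window. These 6 were the 7 named above without GARS. Some genes have more than 1 RefSeq start, and positions are counted from the start of the window shown, as position 0. On this count the motif began at -187 in AARS, -33 in GARS, -13 in IARS, -4 in MARS, -2 in CARS, 2 in TARS and 14 in NARS. AARS was alone among the 7 in carrying it more than 33 bases from the start, and its upstream 200 bases, positions -250 to -51, are given here to show the motif in its surroundings.
AARS upstream (chr16:70289557-70289756, minus strand): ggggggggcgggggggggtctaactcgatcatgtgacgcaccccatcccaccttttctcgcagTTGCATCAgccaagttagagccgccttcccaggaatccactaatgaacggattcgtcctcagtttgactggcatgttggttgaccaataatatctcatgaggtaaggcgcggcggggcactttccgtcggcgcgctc

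A motif match is a description of letters and not of binding. In cells labelled HepG2 the 7 cytosolic genes with the motif had a median log2 ratio of 1.07 (0.12 to 1.42), and the 9 with a window and no motif had -0.03 (-0.47 to 1.44). In Huh7 these medians were 0.1 and 0.09. WARS, SARS and QARS, all at least 1.5-fold higher under the HepG2 label, were among the 9 whose windows did not hold the motif. LARS and YARS also passed 1.5-fold there, but had no window and are in neither set.

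In cells labelled HepG2 many cytosolic synthetase transcripts were higher after treatment and none was lower by the folds used. Over all genes considered, 2.43% were at least 2-fold lower and 8.76% at least 1.5-fold lower, so few of 21 would be looked for there. AARS, CARS, GARS, MARS and WARS were at least 2-fold higher, 5 of 21, against 6.7% of the 11843 genes considered in that direction. A further 5, SARS, YARS, IARS, QARS and LARS, passed 1.5-fold, giving 10 of 21 against a background of 19.2%. Ratios are log2((treated FPKM + 1)/(untreated FPKM + 1)), which understates the change of low transcripts. Their median was 0.58 over the cytosolic genes and 0.087 over all genes considered. Summed over the 21 genes, the level was 1888 FPKM treated and 1207 FPKM untreated, or 0.552% and 0.342% of all coding FPKM. A sum of transcript in bulk RNA cannot separate more RNA per cell from a change in which cells remained.

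WARS, which charges tryptophan and is also known as an interferon-induced gene, stood at 91.6 FPKM in treated and 33.1 FPKM in untreated cells labelled HepG2, a log2 ratio of 1.44. In Huh7 it stood at 16 FPKM treated and 21.8 FPKM untreated, a log2 ratio of -0.43. The treated library was thus the higher of the pair under the HepG2 label and the lower in Huh7.

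CARS (ENSG00000110619; chr11:3000922-3057613, GRCh38, minus strand), the cysteine enzyme, stood at 56.7 FPKM in treated and 20.5 FPKM in untreated cells labelled HepG2. Its linear ratio there was 2.77, with an exact 95% binomial interval of 2.6 to 2.94 that covers counting error only. In Huh7 it stood at 32.0 FPKM treated and 31.2 FPKM untreated, a linear ratio of 1.03 (0.965 to 1.09). The Huh7 values differed by less than the counting error.

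AARS (ENSG00000090861; chr16:70252295-70289543, GRCh38, minus strand), the alanine enzyme, stood at 216 FPKM in treated and 83.7 FPKM in untreated cells labelled HepG2, a linear ratio of 2.58 (2.51 to 2.65). In Huh7 it stood at 210 FPKM treated and 183 FPKM untreated, a linear ratio of 1.15 (1.12 to 1.17). Untreated cells labelled HepG2 had the lowest value, and the other 3 libraries lay close together.

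GARS, the glycine enzyme of both cytosol and mitochondria, stood at 284 FPKM in treated and 112 FPKM in untreated cells labelled HepG2, the highest level of any synthetase in the treated library. Its log2 ratio was 1.33 there. In Huh7 it stood at 152 FPKM treated and 155 FPKM untreated, a log2 ratio of -0.03. The treated library labelled HepG2 had the highest GARS level of the 4, and its untreated partner the lowest.

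MARS, the methionine enzyme, stood at 66.9 FPKM in treated and 31.3 FPKM in untreated cells labelled HepG2, a log2 ratio of 1.07. In Huh7 it stood at 90.9 FPKM treated and 111 FPKM untreated, a log2 ratio of -0.28. Both Huh7 libraries were above both libraries labelled HepG2. With median-of-ratios size factors MARS fell short of 2-fold, at 0.95 on the log2 scale, as it did with a pseudocount of 5, at 0.99, and the count at 2-fold was then 4 of 21.

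**Figure D1:**
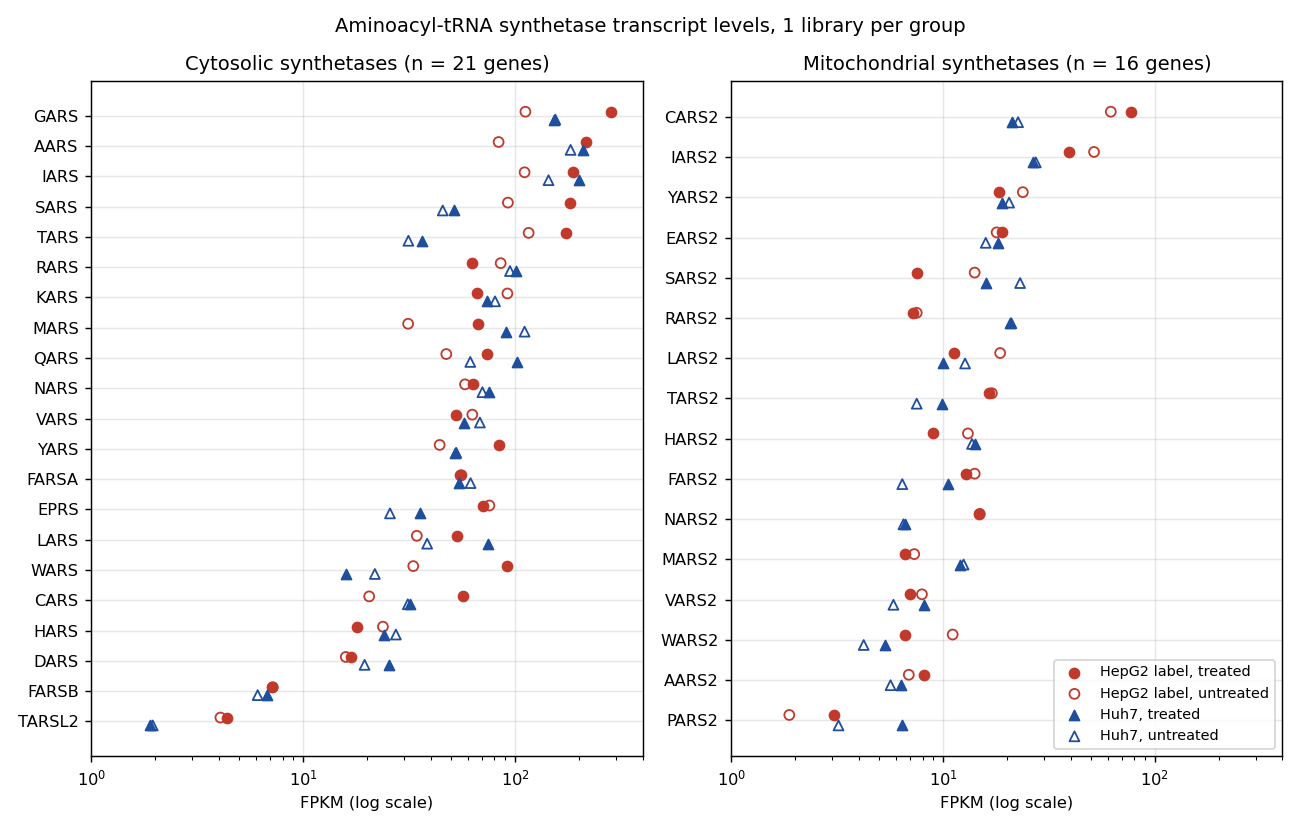
FPKM (log axis) of 21 cytosolic and 16 mitochondrial synthetases in the 4 libraries, with filled symbols for treated and open symbols for untreated cells, circles for the HepG2 label and triangles for Huh7. GARS, at 284 FPKM in treated cells labelled HepG2, is the highest point, and the filled circles of AARS, CARS, GARS, MARS and WARS lie far to the right of the open ones.

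SARS, the serine enzyme, stood just under 2-fold, at 182 FPKM in treated and 92.6 FPKM in untreated cells labelled HepG2 (log2 ratio 0.97), against 51.3 FPKM in treated and 45.6 FPKM in untreated Huh7 (0.17). YARS, the tyrosine enzyme, stood at 84.0 FPKM treated and 44.1 FPKM untreated under the HepG2 label (0.91), and at 52.2 FPKM treated and 52.8 FPKM untreated in Huh7 (-0.02). For both genes the treated library labelled HepG2 was the highest of the 4. IARS, the isoleucine enzyme, stood at 188 FPKM treated and 111 FPKM untreated under the HepG2 label (0.76) and had a ratio of 0.47 in Huh7. TARS, which charges threonine, stood at 174 FPKM treated and 116 FPKM untreated under the HepG2 label, a ratio of 0.58 just short of 1.5-fold, and at 36.4 FPKM treated and 31.4 FPKM untreated in Huh7. TARS was lower in both Huh7 libraries than in either library labelled HepG2.

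LARS and QARS were the 2 synthetases at least 1.5-fold higher in both lines, 2 of 38, against 4.68% of the 10758 genes considered in both. LARS charges leucine and is known as a leucine sensor for the growth kinase mTORC1. It stood at 53.5 FPKM treated and 34.4 FPKM untreated under the HepG2 label, and at 74.4 FPKM treated and 38.5 FPKM untreated in Huh7, for log2 ratios of 0.63 and 0.93. QARS, the glutamine enzyme, stood at 74.1 FPKM treated and 47.4 FPKM untreated under the HepG2 label, and at 102 FPKM treated and 61.5 FPKM untreated in Huh7, for log2 ratios of 0.63 and 0.72. In each line the treated library was the higher for both genes. Size factors left LARS at 0.51 and QARS at 0.52 under the HepG2 label and QARS at 0.57 in Huh7, all short of 1.5-fold, and LARS at 0.78 in Huh7.

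The remaining 10 cytosolic synthetases had log2 ratios under the HepG2 label from -0.47 to 0.12. KARS, the lysine enzyme, had the lowest, at 66.2 FPKM treated and 92.1 FPKM untreated. RARS, the arginine enzyme, stood at 62.7 FPKM treated and 85.6 FPKM untreated (-0.44), and HARS, the histidine enzyme, at 18 FPKM treated and 23.8 FPKM untreated (-0.39). VARS, for valine, had -0.25, EPRS, the fused glutamate and proline enzyme, -0.09, and the phenylalanine subunits FARSA and FARSB -0.03 and -0.01. DARS, for aspartate, had 0.07, TARSL2, the TARS-like threonine enzyme, 0.09, and NARS, for asparagine, 0.12. FARSA and FARSB encode the catalytic and partner subunit of 1 enzyme. The FPKM of FARSA was 7.67 times that of FARSB in treated and 7.78 times in untreated cells labelled HepG2, and 8.03 times in treated and 10.1 times in untreated Huh7.

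In Huh7 no cytosolic synthetase passed 2-fold in either direction, against backgrounds of 3.88% higher and 2.19% lower among 11945 genes. Only LARS and QARS passed 1.5-fold, 2 of 21 against 15.4% of genes higher, and none was lower by 1.5-fold against 7.63%. The median cytosolic ratio was 0.09 beside 0.102 over all genes considered. The summed level was 1474 FPKM treated and 1332 FPKM untreated. EPRS, IARS and DARS had ratios of 0.45, 0.47 and 0.36, while WARS, MARS and VARS had the lowest, at -0.43, -0.28 and -0.25.

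**Figure D2:**
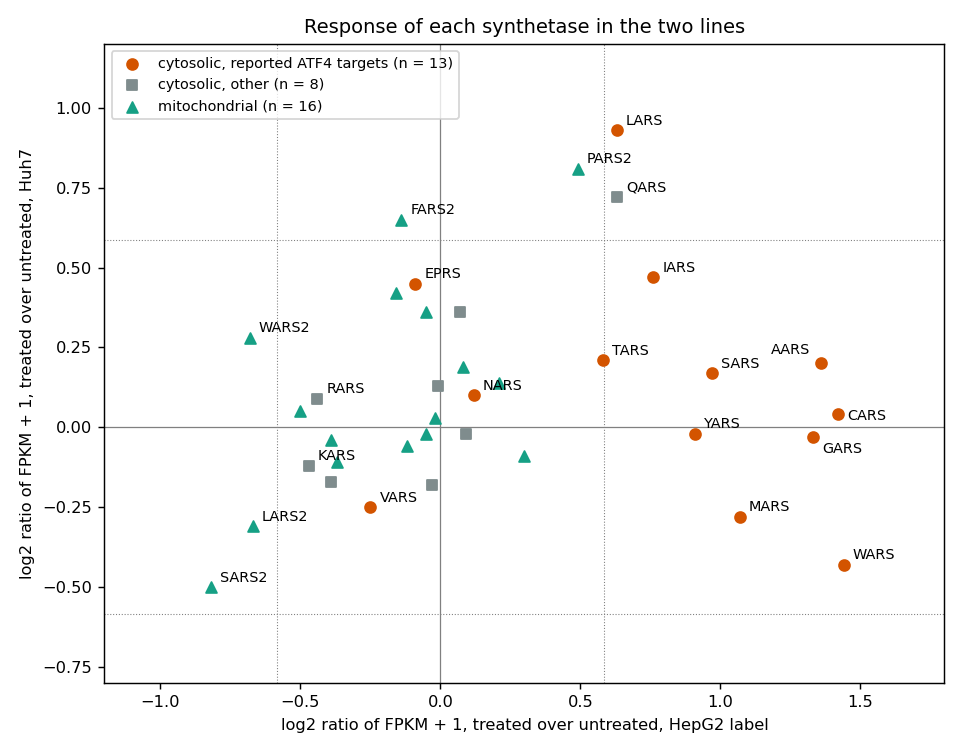
Log2 ratio of 37 synthetases, treated over untreated, under the HepG2 label (horizontal) and in Huh7 (vertical), coloured by group, with dotted lines at 1.5-fold. LARS and QARS are past both upper lines, while WARS, CARS, AARS, GARS and MARS lie far right and near or below 0 in Huh7.

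Across the 21 cytosolic genes the ratios of the lines had a Pearson r of 0.01 and a Spearman rho of 0.03, and across the 17 mitochondrial genes 0.56 and 0.4. These describe genes of the same 4 libraries, which are not independent replicates. Over all 38 synthetases, 16 had ratios of opposite sign in the lines, and the share over all genes was not counted. Some of these lay near 0, such as NARS2 at -0.02 under the HepG2 label and 0.03 in Huh7. Of the 16, 3 were beyond the counting error in both lines and differed by at least 1.5-fold between them on ratios with the pseudocount of 1.

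The cytosolic genes were also grouped by known properties. The 13 reported ATF4 targets had a median ratio of 0.91 under the HepG2 label. Of the 13, 5 were past 2-fold higher against 6.7% of all genes, and 9 past 1.5-fold against 19.2%. The 8 other cytosolic genes had a median of -0.02, with QARS the 1 past 1.5-fold higher, against the same 19.2%. In Huh7 the medians were 0.1 and 0.04. Of the 13, NARS, EPRS and VARS had ratios from -0.25 to 0.12 under the HepG2 label. The list comes from general knowledge of ATF4 and is not independent evidence of a direction.

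**Figure D3:**
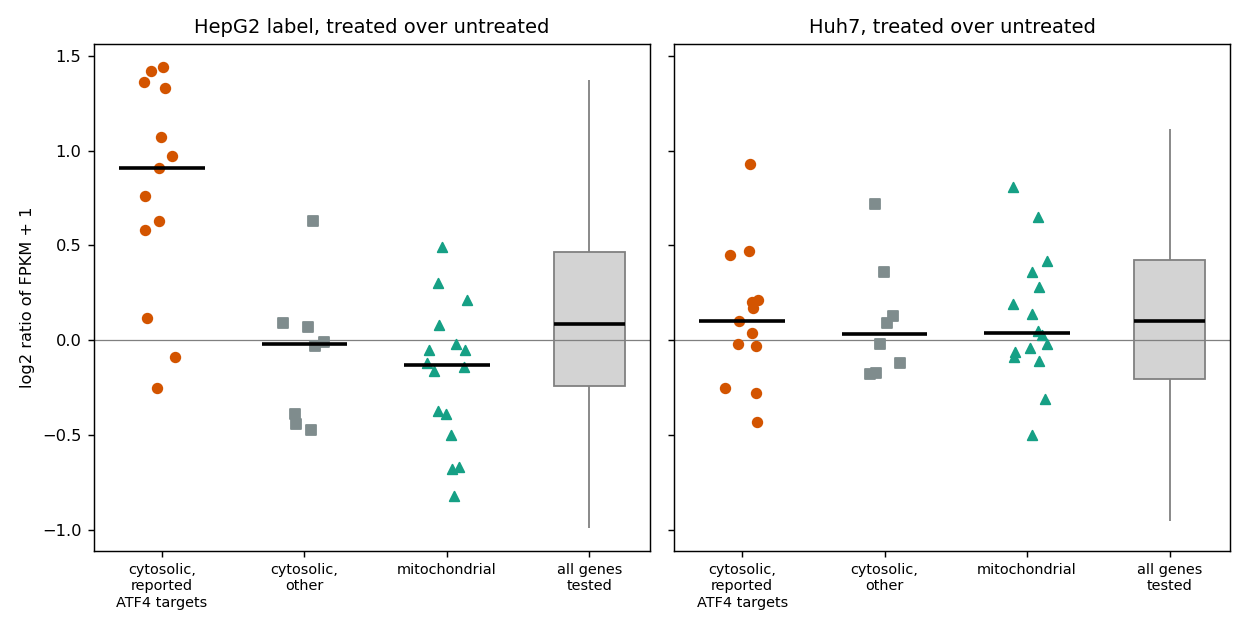
Log2 ratios, treated over untreated, under the HepG2 label (left) and in Huh7 (right), for 13 reported ATF4 targets, 8 other cytosolic and 16 mitochondrial synthetases, with black bars at the medians of the points shown and a grey box of the quartiles of all genes considered, whose line spans their central 95%. Under the HepG2 label the reported targets have a median of 0.91 beside 0.087 for all genes, and in Huh7 0.1 beside 0.102.

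The 8 synthetases of the multi-synthetase complex, DARS, EPRS, IARS, KARS, LARS, MARS, QARS and RARS, had a median ratio of 0.35 under the HepG2 label and 0.41 in Huh7. The 13 outside it had 0.58 and -0.02. At 1.5-fold, 4 of 8 in the complex and 6 of 13 outside were higher under the HepG2 label, against 19.2% of all genes. In Huh7, 2 of 8 in the complex and 0 of 13 outside were higher, against 15.4% of all genes. Of the 4 complex members that are also reported ATF4 targets, LARS and IARS were higher in both lines by at least 0.47. MARS was higher under the HepG2 label alone, and EPRS was at -0.09 there and 0.45 in Huh7. By fold of the catalytic domain, the 9 class I enzymes had a median of 0.76 and the 11 class II enzymes 0.09 under the HepG2 label, with EPRS, which holds both, left aside. These medians were 0.04 and 0.1 in Huh7. The levels of the 8 complex members, whose products assemble together, spanned 11.2-fold from lowest to highest in treated and 6.95-fold in untreated cells labelled HepG2.

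Mitochondrial synthetase transcripts were mostly near or below their untreated level under the HepG2 label, where 4 of 17 had a ratio above 0. The share of all genes with a ratio above 0 was not counted. None of the 17 was higher by 1.5-fold, against 19.2% of all genes. SARS2, WARS2 and LARS2 were at least 1.5-fold lower, 3 of 17 against 8.76% of all genes. None reached 2-fold lower, against 2.43%. The median ratio was -0.12 beside 0.087 over all genes considered, and the summed level was 299 FPKM treated and 326 FPKM untreated. In Huh7, PARS2 and FARS2 were at least 1.5-fold higher, 2 of 17 against 15.4% of all genes, and none was lower, against 7.63%, with a median of 0.05 and a summed level of 234 FPKM treated and 226 FPKM untreated.

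SARS2, the mitochondrial serine enzyme, stood at 7.57 FPKM in treated and 14.1 FPKM in untreated cells labelled HepG2, a log2 ratio of -0.82, and at 16 FPKM treated and 23.1 FPKM untreated in Huh7, a log2 ratio of -0.50. The treated library was the lower in both lines. SARS2 is uncertain, because 46.2% of its exonic bases are shared on the same strand with AC011455.2, a gene listed at 1.02 FPKM treated and 0.0815 FPKM untreated under the HepG2 label and at 2.82 FPKM treated and 2.42 FPKM untreated in Huh7. MRPS12, a mitochondrial ribosomal protein gene that runs the opposite way and overlaps the start of SARS2 by 348 bases, had ratios of -0.49 under the HepG2 label and -0.29 in Huh7.

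WARS2, the mitochondrial tryptophan enzyme, stood at 6.59 FPKM in treated and 11.1 FPKM in untreated cells labelled HepG2 (-0.68), and at 5.34 FPKM treated and 4.22 FPKM untreated in Huh7 (0.28). LARS2, the mitochondrial leucine enzyme, stood at 11.3 FPKM treated and 18.6 FPKM untreated under the HepG2 label (-0.67), and at 10.0 FPKM treated and 12.7 FPKM untreated in Huh7 (-0.31). LARS2 was thus lower after treatment in both lines, the opposite side from cytosolic LARS.

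PARS2, the mitochondrial proline enzyme and the least abundant mitochondrial member under the HepG2 label, stood at 3.05 FPKM treated and 1.88 FPKM untreated there. In Huh7 it stood at 6.38 FPKM treated and 3.21 FPKM untreated, a log2 ratio of 0.81. Its linear ratio in Huh7 was 1.99, with a counting interval of 1.66 to 2.37. FARS2, the mitochondrial phenylalanine enzyme, stood at 10.6 FPKM treated and 6.42 FPKM untreated in Huh7 (0.65), and at 12.8 FPKM treated and 14.1 FPKM untreated under the HepG2 label (-0.14). PARS2 was higher after treatment in both lines and FARS2 in Huh7 alone.

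Among the other mitochondrial enzymes, HARS2 (histidine), IARS2 (isoleucine) and YARS2 (tyrosine) had ratios of -0.50, -0.39 and -0.37 under the HepG2 label and of 0.05, -0.04 and -0.11 in Huh7. HARS2 and HARS run opposite ways with starts that overlap by 436 bases, and 11.7% of the exonic bases of HARS2 overlap HARS, so their reads cannot be told apart there without strand. VARS2 (valine) and TARS2 (threonine) had -0.16 and -0.05 under the HepG2 label and 0.42 and 0.36 in Huh7. VARS2 shares 22.0% of its exonic bases with GTF2H4 on the same strand and is uncertain. CARS2 (cysteine), the most abundant mitochondrial member under the HepG2 label, stood at 76.7 FPKM treated and 61.9 FPKM untreated there (0.30) and had -0.09 in Huh7. The ratios of AARS2 (alanine), EARS2 (glutamate), MARS2 (methionine), NARS2 (asparagine) and RARS2 (arginine) lay between -0.12 and 0.21 in both lines.

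Setting each mitochondrial enzyme beside the cytosolic one for the same amino acid gave 17 pairs, in which EPRS serves for both EARS2 and PARS2. For phenylalanine the subunit FARSA was set beside FARS2, and FARSB was left out of the pairs. Under the HepG2 label the cytosolic ratio was the higher in 13 of 17 pairs, with a median difference of 0.63 on the log2 scale. In 9 pairs the difference passed 1.5-fold towards the cytosolic enzyme, and in 0 towards the mitochondrial one. That 0 depends on the pseudocount, with which the EPRS and PARS2 pair was at -0.58, just short of 1.5-fold. In plain FPKM, EPRS over PARS2 was 23.3 treated and 40.1 untreated under the HepG2 label, a shift past 1.5-fold towards PARS2. In Huh7 the cytosolic ratio was the higher in 9 of 17, with a median difference of 0.06. There 2 pairs passed 1.5-fold towards the cytosolic and 3 towards the mitochondrial enzyme. The FARSA and FARS2 pair, at -0.83, is among those 3 and depends on the subunit taken. FARSB had a Huh7 ratio of 0.13 beside 0.65 for FARS2, which is short of 1.5-fold apart.

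The widest shift was in the tryptophan pair, where WARS over WARS2 was 13.9 in treated and 2.98 in untreated cells labelled HepG2, but 2.99 in treated and 5.18 in untreated Huh7. SARS over SARS2 was 24.1 treated and 6.55 untreated under the HepG2 label, and 3.20 treated and 1.97 untreated in Huh7. The leucine pair shifted the same way in both lines, since LARS over LARS2 was 4.75 treated and 1.85 untreated under the HepG2 label and 7.43 treated and 3.04 untreated in Huh7. In level the cytosolic transcript was the more abundant in 15 of 17 pairs in each library labelled HepG2 and in 17 of 17 in each Huh7 library. The exceptions included cysteine, with CARS over CARS2 at 0.739 treated and 0.331 untreated under the HepG2 label. These counts hold with FARSA for phenylalanine, since FARSB was below FARS2 in every library. In Huh7 FARSB stood at 6.77 FPKM treated and 6.1 FPKM untreated, and FARS2 at 10.6 FPKM treated and 6.42 FPKM untreated.

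**Figure D4:**
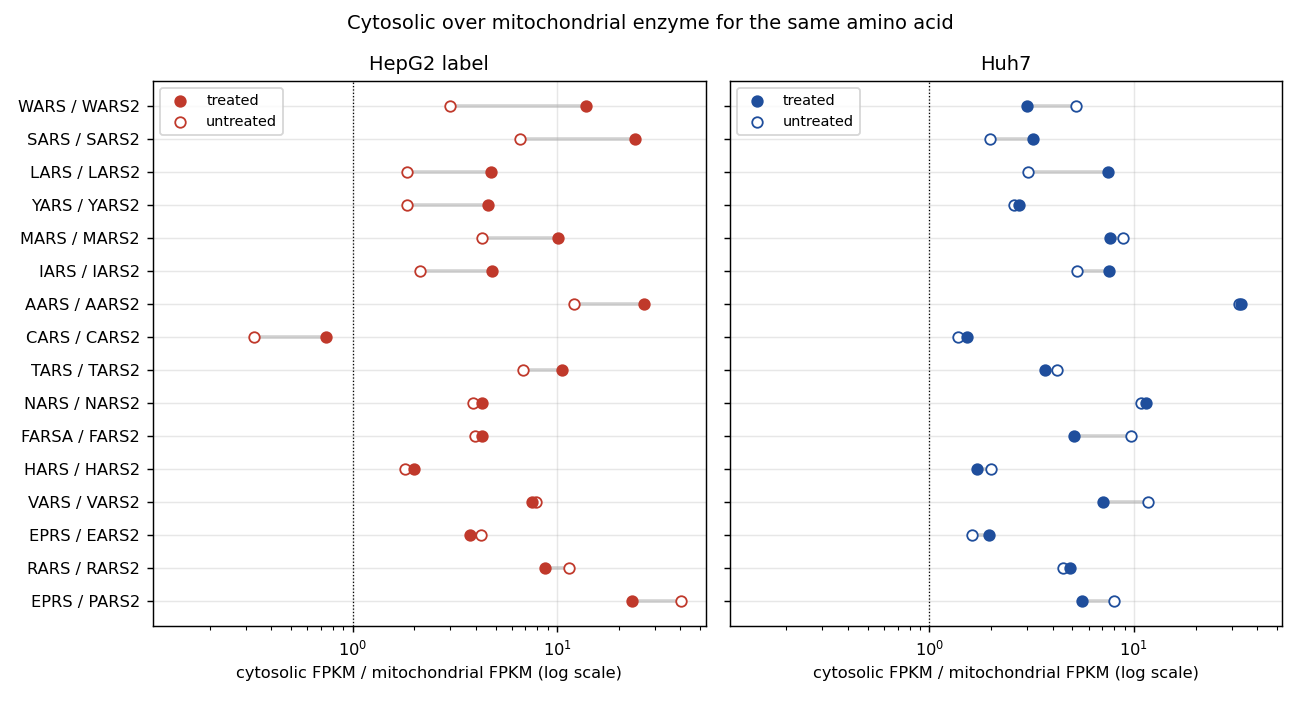
FPKM of the cytosolic over the mitochondrial synthetase for the same amino acid (log axis, 16 pairs shown) in treated (filled) and untreated (open) cells, for the HepG2 label (left) and Huh7 (right), ordered by the change under the HepG2 label. WARS over WARS2 is 13.9 in treated and 2.98 in untreated cells labelled HepG2, and 2.99 in treated and 5.18 in untreated Huh7.

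Before treatment some cytosolic synthetases differed between the lines, though at each fold their share was below that over all genes. In untreated Huh7 over untreated cells labelled HepG2, AARS and MARS were at least 2-fold higher, 2 of 21 cytosolic genes against 17.5% of 12446 genes. TARS, EPRS and SARS were at least 2-fold lower, 3 of 21 against 17.2%. At 1.5-fold, with CARS and TARSL2 added, 3 of 21 were higher against 26.2% of genes, and 4 of 21 lower against 29.2%. MARS stood at 111 FPKM in untreated Huh7 and 31.3 FPKM in untreated cells labelled HepG2, and AARS at 183 FPKM and 83.7 FPKM in the same order. TARS stood at 31.4 FPKM in untreated Huh7 and 116 FPKM in untreated cells labelled HepG2.

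Of the 17 mitochondrial genes, 6 were at least 2-fold lower in untreated Huh7, among them CARS2, WARS2, NARS2, TARS2 and FARS2, against 17.2% of all genes, and RARS2 was at least 2-fold higher, 1 of 17 against 17.5%. At 1.5-fold 7 of 17 were lower against 29.2%, with IARS2 added, and 3 of 17 higher against 26.2%, with SARS2 and MARS2 added. CARS2 stood at 22.6 FPKM in untreated Huh7 and 61.9 FPKM in untreated cells labelled HepG2. RARS2 stood at 21.0 FPKM in untreated Huh7 and 7.51 FPKM in untreated cells labelled HepG2. The mitochondrial sum was 226 FPKM in untreated Huh7 and 326 FPKM in untreated cells labelled HepG2, and the median ratio -0.39 beside -0.059 for all genes. Of the 5 genes past 2-fold after treatment under the HepG2 label, MARS, AARS, CARS and GARS were at 1.79, 1.12, 0.59 and 0.46 in this comparison and WARS was at -0.58. Both comparisons share the untreated library labelled HepG2.

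Genes that work beside the synthetases are described by list. Over all genes, 19.2% were at least 1.5-fold higher and 8.76% lower under the HepG2 label, and 15.4% and 7.63% in Huh7. A count of 0 in a list of a few genes is not read as a result beside these shares. Of the 3 scaffold genes of the complex, AIMP1, AIMP2 and EEF1E1, none passed 1.5-fold under the HepG2 label, where their ratios ran from -0.45 to -0.28. In Huh7 EEF1E1 stood at 11 FPKM treated and 18.1 FPKM untreated (-0.67). Elongation factors carry charged transfer RNA to the ribosome or move it along, and none of 7 passed 1.5-fold under the HepG2 label. In Huh7 EEF1G, a subunit of the exchange factor, stood at 864 FPKM treated and 368 FPKM untreated (1.23), and EIF5A, which relieves stalled ribosomes, at 84.4 FPKM treated and 186 FPKM untreated (-1.13).

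None of the 4 genes that make mitochondrial glutamine-bearing or formylated transfer RNA passed 1.5-fold in either line, beside the shares over all genes given above. QRSL1, a subunit of the amidotransferase, had the largest ratio, 0.43 under the HepG2 label. Of 9 mitochondrial translation factors, TUFM, the elongation factor that brings charged transfer RNA to the mitochondrial ribosome, stood at 125 FPKM treated and 199 FPKM untreated under the HepG2 label (-0.66). In Huh7, 3 of the 9 were at least 1.5-fold higher, against 15.4% of all genes. These were the initiation factors MTIF2 (1.07) and MTIF3 (0.67) and the release factor family member MTRF1 (0.82).

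Of 5 genes for editing mischarged transfer RNA or for making selenocysteine on it, AARSD1, which hydrolyses mischarged alanine transfer RNA, stood at 5.91 FPKM treated and 12.7 FPKM untreated under the HepG2 label (-0.99). SEPSECS, which completes selenocysteine, had 0.60 in Huh7. Selenocysteine is the residue in the active site of GPX4, the target of RSL3.

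Genes that mature or export transfer RNA were mostly lower under the HepG2 label, with a median of -0.24 over 22 genes beside 0.087 for all genes and with 4 of 22 at least 1.5-fold lower against 8.76% of all genes. None was 1.5-fold higher, against 19.2%. The 4 were TRMT6 (-1.11), a methyltransferase subunit, POP4 (-1.02) and RPP40 (-0.89), subunits of RNase P, which trims the leading end, and ELAC2 (-1), the nuclease that trims the trailing end. ELAC2 stood at 37.6 FPKM treated and 76.4 FPKM untreated. In Huh7 the median was 0.04, with 2 of 22 genes at least 1.5-fold higher against 15.4% of all genes, among them the RNase P subunit RPP38 (0.69), and 1 lower against 7.63%, RPP14 (-0.77).

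ATF4 and 14 of its known targets outside the synthetases were listed to set beside the members. Their levels are given as a description, since the synthetase ratios come from the same libraries. ATF4 stood at 229 FPKM treated and 85.6 FPKM untreated under the HepG2 label (1.41), and at 202 FPKM treated and 132 FPKM untreated in Huh7 (0.61). Under the HepG2 label 9 of the 15 passed 2-fold higher against 6.7% of all genes and 11 passed 1.5-fold against 19.2%, with a median of 1.33. In Huh7 3 passed 2-fold against 3.88% and 5 passed 1.5-fold against 15.4%, with a median of 0.20.

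The targets past 1.5-fold under the HepG2 label were the glutathione-degrading CHAC1 (3.46), asparagine synthetase ASNS (2.52), SESN2 (2.44), the pseudokinase gene TRIB3 (2.28), the transcription factor gene DDIT3 (2.27), PHGDH (1.8) and PSAT1 (0.86) of serine synthesis, DDIT4 (1.33), VLDLR (1.32) and CEBPB (0.96), the gene of a C/EBP partner. ASNS stood at 162 FPKM treated and 27.4 FPKM untreated under the HepG2 label, but at 182 FPKM treated and 134 FPKM untreated in Huh7. In Huh7 the targets past 1.5-fold were DDIT4 (1.41), CHAC1 (1.33), the transporter genes SLC3A2 (1.24) and SLC7A11 (0.95), and, lower, SLC7A5 (-0.63).

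The only test across libraries was limma on all 4, with the cell line as a block, which asks whether both lines responded alike. It called 0 of 13030 genes at an adjusted p under 0.05 (Benjamini-Hochberg), 0 of the 38 synthetases among them. At an unadjusted p under 0.05 it had 1534 genes, 11.8%, and 5 synthetases, of which LARS, QARS, IARS and AARS were higher and SARS2 lower. The smallest adjusted p of a synthetase in limma was 0.287 for LARS, with a mean log2 ratio of 0.78 ± 0.22 (SE) over the lines, higher in 2 of 2. SARS2 had a limma mean of -0.66 ± 0.25 (SE, adjusted p = 0.365), lower in 2 of 2. WARS, CARS and GARS, far higher under the HepG2 label alone, are not what this fit looks for.

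The authors' deposited table of KEGG pathways for the HepG2 label lists aminoacyl-tRNA biosynthesis with 6 of 66 genes, at p = 0.982. By the authors' deposited table those genes include AARS, CARS, GARS, WARS and SARS2, and AC011455.2, which overlaps SARS2. The authors' deposited table for Huh7 lists 1 of 66 genes in that pathway, and it is not a member. The authors' deposited table of Gene Ontology terms for the HepG2 label gives alanine-tRNA ligase activity 3 of 4 genes (p = 0.012, corrected p = 0.199), namely AARS, AARSD1 and the fused gene PTGES3L-AARSD1. In the present values AARS was higher and AARSD1 lower after treatment, so that term joins genes on opposite sides of 0.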

How the data were processed

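RNA sequencing was done on total RNA of 4 libraries, 1 per group. The authors deposited FPKM per coding gene and per long noncoding transcript, per the file headers. Per the submitters' processing notes, the tools include StringTie 1.3.1, HISAT2 and Bowtie2 2.2.8, and Cuffdiff 2.1.1, with no roles or order given. The build is not given in the sources used, but 99.93% of 19664 coding genes matched by identifier overlap their GENCODE 29 position, so positions are GRCh38 coordinates. Whether strand was kept is not given, so reads of overlapping genes cannot be told apart. The authors also deposited enrichment tables with p-values, per the file headers.

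Ratios used a pseudocount of 1 over genes reaching 1 FPKM in either library compared, with folds of 2 and 1.5 as descriptions. A limma trend fit (limma 3.58.1 under R 4.3.3) was run on log2(FPKM + 1) of the 4 libraries with 1 residual degree of freedom. It was tested on simulated data. Libraries were paired by cell line, which the labels give. No count model was used on FPKM. Depth was inferred from steps of low FPKM in 2595 genes with 1 annotated transcript. The step rested on 45 to 53 of them in a library. It was sought only within a range set beforehand, so a depth outside that range could not be found. Exact 95% binomial (Clopper-Pearson) intervals on inferred fragments of the principal transcript rest on this depth and cover counting error only. Nothing in the labels marks repeat cultures.

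The synthetases are named, and of 7 partner lists genes at least 1.5-fold changed in either line are named or, where none is, the one with the largest ratio. Some genes that this rule names are not reported here, though counts, medians and sums include them. Members and lists were chosen with earlier results of these data known. Alternatives were pseudocounts of 0.1 and 5, minima of 0 and 5 FPKM, rescaling to 1 sum, size factors, and limma without block or trend. Figures were drawn with matplotlib 3.10.9.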

Additional observations from a re-analysis of the deposited data

Results flagged for a closer look

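Of the 38 synthetases, 3 had ratios of opposite sign in the lines that each lay beyond the counting error and differed by at least 1.5-fold between lines. WARS differed by 1.87 on the log2 scale (1.44 under the HepG2 label and -0.43 in Huh7). MARS differed by 1.35 (1.07 and -0.28). WARS2 differed by -0.96 (-0.68 and 0.28). The 1.5-fold rule used ratios with the pseudocount, on which VARS2 (-0.16 and 0.42) fell just short. The plain ratio of VARS2 was 0.881 (0.794 to 0.976) under the HepG2 label and 1.4 (1.26 to 1.56) in Huh7, past 1.5-fold apart. With 1 library per group these differences between lines were not tested. The cytosolic and the mitochondrial tryptophan enzymes, WARS and WARS2, thus lay on opposite sides of 0 in each line, with WARS above 0 under the HepG2 label and WARS2 above 0 in Huh7.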

How the results depend on the processing

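Of the counts and medians recomputed under alternatives, 14 moved beyond the tolerance used, which is 1.5 times for a count and the typical counting error of a member for a median, and 2 changed sign. The other 180 stayed within it, which is not to say that they were identical. The cytosolic count at 2-fold higher under the HepG2 label was 5 and ran from 4 to 6, and that at 1.5-fold was 10 and ran from 8 to 11. A pseudocount of 0.1 put 1 mitochondrial synthetase, PARS2, past 1.5-fold higher under the HepG2 label. A pseudocount of 5 left 1 mitochondrial gene 1.5-fold lower under the HepG2 label and 0 higher in Huh7, and in untreated Huh7 over untreated cells labelled HepG2 it left 1 mitochondrial gene 2-fold lower, 1 at 1.5-fold higher and a median of -0.26. Size factors gave a median of all genes of -0.02 under the HepG2 label (0.087 without them) and of -0.03 in Huh7 (0.102 without them). With them the cytosolic median was 0.46 and the mitochondrial -0.23 under the HepG2 label, and 1 cytosolic gene, KARS, was 1.5-fold lower. In Huh7 the medians became -0.05 for cytosolic and -0.09 for mitochondrial genes, with 1 cytosolic and 1 mitochondrial gene 1.5-fold higher and 1 mitochondrial gene, SARS2, lower. The limma fit called 1 gene with a minimum of 5 FPKM and 1 after rescaling, neither a synthetase. Without the replicate block for cell line, the pairing given by the labels, it called 0 genes and 0 synthetases, with 112 genes at an unadjusted p under 0.05. No library could be left out, since each group has 1. Of 114 ratios of single synthetases, 75 moved beyond the typical counting error with size factors, 28 with a pseudocount of 5 and 7 with one of 0.1. No single synthetase reversed its called direction under these settings, a rule that covers only ratios of at least 1.5-fold.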
